A study of Mus musculus with 86 samples.

Results

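Ch25h, Cyp27a1, Cyp7b1, Hsd3b7 and Gpr183 are 4 enzymes and 1 receptor of the oxysterol pathway that guides immune cells, and they were followed here through mouse macrophages of different tissues, strains and cultures. The 5 genes, of 24063 gene symbols measured, were chosen by their place in the pathway with earlier results of these same libraries known. Their values are therefore given as descriptions, with no p, and a gene is said to meet the call rule where limma gave it a Benjamini-Hochberg adjusted p under 0.05 over all genes and a log2 fold of at least 1. All 5 genes passed the filter on low values in every comparison.

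The study profiled RNA in 26 libraries, with the histone marks H3K4me2 (found at promoters and enhancers) and H3K27ac (found at active ones) and the macrophage transcription factor PU.1 by ChIP-seq in matched cells. Of C57BL6/J mice there were untreated microglia (the macrophages of the brain), large peritoneal macrophages (LPM), small peritoneal macrophages (SPM), bone marrow derived macrophages (BMDM, grown in L-cell conditioned medium and then in M-CSF, so never tissue cells) and thioglycolate-elicited peritoneal macrophages (TGEM, recruited by an irritant). Each of these 5 populations had 1 library in a polyA table and 1 in a second table of replicates. In the second table the titles of LPM, SPM and microglia name depletion of ribosomal RNA. Those of BMDM and TGEM give no RNA selection. LPM and microglia also came from NOD/ShiLtJ and SPRET/EiJ mice, SPRET/EiJ being a wild-derived strain of another mouse species, with 1 library each. LPM of C57BL6/J were cultured for 7 days with IL-34 or M-CSF at 4 ng/ml, both ligands of the receptor CSF1R, together with all-trans retinoic acid (ATRA, 2 um by the label) or its solvent DMSO, or with TGFB1 (1 ng/ml) or its vehicle, 1 library per combination. Microglia of C57BL6/J were cultured with IL-34, M-CSF or GM-CSF, 1 library each, beside 1 further library of fresh microglia. The table heads that library's column as a vehicle, and it was taken as the untreated microglia sample because no other microglia sample of that table lacks a ligand, so the values called fresh in the cultures rest on this match. The library called GM-CSF microglia carries that name in its title while its treatment label names M-CSF, and it is called here by its title. Microglia, LPM and SPM were sorted. The labels give neither age nor pooling of the mice, and nothing says that libraries of a group came from separate animals, so p-values measure only the spread between these samples, which may be technical.

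Cholesterol is hydroxylated at its side chain by cholesterol 25-hydroxylase (Ch25h) or sterol 27-hydroxylase (Cyp27a1), the products are hydroxylated again by the oxysterol 7-alpha-hydroxylase Cyp7b1, and the resulting dihydroxycholesterol is the ligand of the G protein-coupled receptor GPR183, also called EBI2. The dehydrogenase Hsd3b7 oxidizes that ligand to an inactive product, so the enzymes that make it and the one that removes it together set the gradient along which GPR183-bearing B cells, dendritic cells and T cells move. Ch25h is a well-known interferon and lipopolysaccharide response gene of macrophages, and its product also acts on sterol sensing inside the cell.

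The libraries held an estimated 2886213 to 27003352 mapped reads, and the values below are reads per 10000000 mapped reads. In the polyA, replicates and strain tables reads were counted over the whole transcript span, introns included, whereas the culture table was counted over exons, so levels were not compared between these. Of 6 microglia markers, the sum counted over spans was 72381 to 107023 in microglia against at most 14755 in the other populations. In the culture table, counted over exons, it was 57181 in fresh microglia. There it was 12522 in GM-CSF cultured microglia, below LPM cultured with TGFB1 (13203 and 13176). Of 6 LPM markers, the sum counted over spans was highest in LPM in each table. It was 91813 and 32053 in C57BL6/J LPM, and SPM also carried these markers (54123 and 17392, polyA and replicates in turn). BMDM, TGEM and microglia reached at most 568.8. Counted over exons, the sum reached at most 5939 in cultured LPM and 90.4 in microglia. The SPM libraries also carried B cell markers, with 7 genes summing to 8794 and 4289 against 586.2 and 790.3 in LPM and 79.6 to 245.8 in microglia. In TGEM that list summed to 1217 and 2242. The TGEM libraries carried fibroblast and mesothelial markers, with 8 genes summing to 3017 and 4047 against at most 145.9 in the other populations. In bulk RNA, fewer cells of a type and less RNA per cell cannot be told apart.

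In mm10, Ch25h lies on chromosome 19 at 34473784 to 34475135 (minus strand) and Cyp27a1 on chromosome 1 at 74713574 to 74737890 (plus strand). Cyp7b1 lies on chromosome 3 at 18071950 to 18243338 (minus strand), Hsd3b7 on chromosome 7 at 127800609 to 127803802 (plus strand) and Gpr183 on chromosome 14 at 121952331 to 121965193 (minus strand). Windows of 300 bases around 3 of the RefSeq starts, from 250 bases before to 50 bases after, are shown because they carry the marks described further on. PU.1 peaks lay over the starts of Hsd3b7 and Gpr183, and Ch25h is the gene that differed most between cultures. The sequences are those of RefSeq on GRCm38.p6, the assembly of the build mm10 that the files use, and are written 5′ to 3′ on the strand of the gene, for Ch25h chr19:34475099-34475398 (minus strand), for Hsd3b7 chr7:127800359-127800658 (plus strand) and for Gpr183 chr14:121965144-121965443 (minus strand). The RefSeq start of Ch25h lies a few bases upstream of the one in the expression tables. Capitals mark the cyclic AMP response element letters TGACGTCA in the Ch25h window, and the letters GGAA on either strand, the core that factors of the ETS family such as PU.1 recognise, in the other 2.
Ch25h: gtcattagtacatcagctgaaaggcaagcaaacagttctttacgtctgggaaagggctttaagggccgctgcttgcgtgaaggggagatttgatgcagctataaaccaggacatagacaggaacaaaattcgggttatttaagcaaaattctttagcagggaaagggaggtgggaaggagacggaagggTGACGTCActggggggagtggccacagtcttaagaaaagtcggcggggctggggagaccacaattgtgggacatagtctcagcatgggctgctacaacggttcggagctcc
Hsd3b7: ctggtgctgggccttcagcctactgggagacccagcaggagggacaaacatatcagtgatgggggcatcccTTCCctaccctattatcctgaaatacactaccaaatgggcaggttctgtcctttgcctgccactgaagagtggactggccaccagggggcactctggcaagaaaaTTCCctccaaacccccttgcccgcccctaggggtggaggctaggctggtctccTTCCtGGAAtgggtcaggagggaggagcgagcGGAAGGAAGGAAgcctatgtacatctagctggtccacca
Gpr183: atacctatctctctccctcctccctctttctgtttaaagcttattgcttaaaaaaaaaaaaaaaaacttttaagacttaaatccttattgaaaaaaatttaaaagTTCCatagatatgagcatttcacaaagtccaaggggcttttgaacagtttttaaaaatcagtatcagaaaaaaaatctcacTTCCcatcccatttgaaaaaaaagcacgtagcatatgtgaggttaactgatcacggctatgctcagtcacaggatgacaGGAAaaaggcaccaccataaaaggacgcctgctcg
TGACGTCA was found in 1.79% of the 32851 promoter windows of the same length, counted on both strands, and once in the Ch25h window. GGAA was found in 96.0% of all windows, with 5 matches in that of Ch25h, 7 in that of Hsd3b7 and 3 in that of Gpr183. The longer letters GAGGAA, present in 28.3% of all windows, were in none of the 3, nor were the AP-1 letters TGANTCA (7.81%), and a match or its lack in a window describes letters only.

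Of the enzymes that start the pathway, Ch25h was close to the floor in most freshly profiled populations while Cyp27a1 was at a similar level in all 5. Ch25h had 3 reads and 1 read in microglia in the polyA and replicates tables. It read 0.668 (1 read) and 0 in LPM and 0 in both SPM libraries, where 3 reads would have been 10.4 in the shallow polyA library and 1.63 in the other. It read 0.912 (2 reads) and 8.38 (18 reads) in BMDM, and 14.8 (40 reads) and a single read's worth in TGEM. The 2 libraries of BMDM differed 9.19-fold and those of TGEM 5.97-fold, so the order of the 5 populations for Ch25h is not fixed by these libraries. Cyp27a1, the mitochondrial enzyme that makes 27-hydroxycholesterol, averaged 462.2 ± 226.7 in BMDM, 396.5 ± 120.4 in SPM, 383.3 ± 162.4 in microglia, 351.4 ± 106.4 in LPM and 312.0 ± 111.2 in TGEM (mean ± SD, n = 2 each). Every value of Cyp27a1 was lower in the replicates table (233.4 to 311.3) than in the polyA table (390.7 to 622.5), and no population stood outside the spread between the 2 tables.

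Cyp7b1 separated peritoneal macrophages from BMDM. In the polyA table it read 93.5 in LPM and 121.3 in SPM against 2.74 in BMDM, 2.15 in microglia and 43.0 in TGEM, and in the other table it read 665.0 in LPM and 869.0 in SPM against 7.45 in BMDM, 507.3 in microglia and 52.1 in TGEM. LPM lay above BMDM by a log2 fold of 5.48 and SPM by 5.86 in the fit with the table as a block, and both met the call rule, although each call was lost in 7 of the 10 fits that left out 1 library (folds 4.41 to 6.55 and 4.79 to 6.93) and without the block. Microglia have no settled place in this order, since their 2 libraries differed 236.0-fold, from 3 reads to 325. The listed span of Cyp7b1 is 171388 bases against 2158 bases of exon, and how many of the reads lay in introns was not tested. The second libraries of LPM, SPM and microglia are titled as depleted of ribosomal RNA, and in LPM and SPM Cyp7b1 differed 7.11-fold and 7.17-fold between tables. It differed 2.72-fold in BMDM and 1.21-fold in TGEM, whose second libraries give no selection. The table block takes the same shift for all populations, so RNA selection and population cannot be told apart in the replicates table. In the culture table, counted over exons, fresh microglia gave Cyp7b1 a single read.

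Hsd3b7, the enzyme that inactivates the ligand, was highest in elicited and bone marrow derived macrophages. It read 1143 and 663.0 in TGEM and 437.4 and 571.6 in BMDM, against 253.0 and 162.7 in LPM, 197.5 and 205.0 in SPM and 169.1 and 140.5 in microglia, in the polyA and replicates tables in turn. Both TGEM and BMDM values lay above all 6 values of the other 3 populations. Against TGEM, microglia were lower by a log2 fold of -2.49, SPM by -2.11 and LPM by -2.10, and against BMDM by -1.69, -1.31 and -1.30, and all of these met the call rule. Leaving out 1 library ended the LPM call against BMDM in 7 of 10 fits and the SPM call in 8 of 10. TGEM and BMDM (-0.80, BMDM minus TGEM) did not differ by that rule, nor did microglia, LPM and SPM among themselves. The LPM values overlapped those of microglia and SPM, and both microglia values lay below both SPM values.

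Gpr183, the receptor, was highest in microglia and lowest in TGEM. It read 1486 and 1917 in microglia, 586.5 and 469.6 in BMDM, 502.4 and 414.4 in SPM, 256.4 and 306.9 in LPM and 111.8 and 96.8 in TGEM, and within each population the 2 tables differed by at most 1.29-fold. Microglia exceeded TGEM by a log2 fold of 4.01, LPM by 2.58 ± 0.31, SPM by 1.88 and BMDM by 1.68, and LPM, SPM and BMDM exceeded TGEM by 1.42, 2.12 and 2.32, all meeting the call rule. The LPM call against TGEM was lost without either LPM library (folds 1.61 and 1.24), and the BMDM call without either BMDM library (folds from 2.15 upward). BMDM and SPM, neighbours in this order, overlapped, and SPM and LPM differed by less than the rule asks. B cells carry Gpr183, and the SPM and TGEM libraries held the B cell markers given above, whose part in the Gpr183 levels was not tested.

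**Figure D1:**
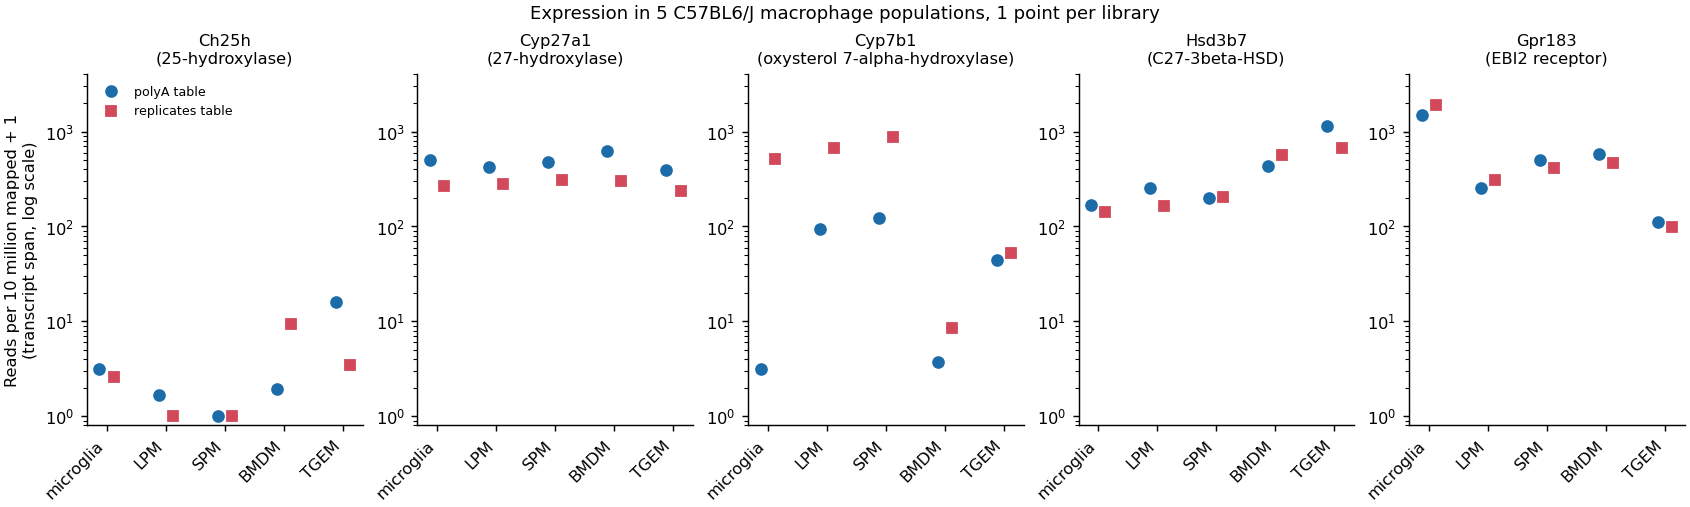
Expression of the 5 genes in 5 C57BL6/J macrophage populations, as reads per 10000000 mapped reads plus 1 on a log axis, with 1 point per library (circles from the polyA table, squares from the replicates table). Gpr183 is highest in microglia at 1486 and 1917 and Hsd3b7 is highest in TGEM at 1143 and 663.0, while the circles and squares of Cyp7b1 lie far apart in microglia.

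The listed span of Gpr183 lies inside the gene Ubac2, which is transcribed from the other strand, and no strand setting of the counting is given. If the reads of Ubac2 that fall outside Gpr183 and its neighbour Gpr18 had the same density within Gpr183, they would make up 6.82% of the Gpr183 value in SPRET/EiJ microglia, the lowest share of 14 libraries, 7.34% in microglia and 29.2% in LPM of the replicates table, and 31.0% and 37.4% in TGEM, the highest. No other member's span overlapped that of another symbol.

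The counts of members meeting the call rule across the 10 population pairs were read beside the share of all genes that met it, because the members were chosen with these contrasts in view. Against microglia, 1 of the 5 did so for LPM (all genes 18.3%), 1 for SPM (20.7%), 2 for BMDM (30.4%) and 2 for TGEM (37.5%). For LPM, 0 did so against SPM (0.0259%) in limma, with 0 at an unadjusted p under 0.05 and 0 by edgeR, while 2 did against BMDM (15.6%) and 2 against TGEM (27%). For SPM, 2 did so against BMDM (15.1%) and 3 against TGEM (26.5%), and for BMDM against TGEM 1 did (5.94%). These pairs share libraries, so they are not separate observations. The third gene of SPM against TGEM was Ch25h (-2.89 ± 0.93), for which SPM had no read and 1 of the 2 TGEM libraries had 1 read; its call was lost in 7 of 10 fits that left out a library, with folds of -4.14 to -1.64. Another scaling of the libraries moved the median log2 fold of all genes by up to 0.21 in these pairs, and the folds given for Gpr183 lie well outside that shift.

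Across strains, the excess of Gpr183 in microglia over LPM recurred. In NOD/ShiLtJ it read 1863 in microglia and 355.4 in LPM, in SPRET/EiJ 1693 and 349.1, and in C57BL6/J, from the replicates, 1917 and 306.9. The within-strain ratios were 5.24, 4.85 and 6.25, with counting intervals of 4.80 to 5.72, 4.42 to 5.33 and 5.66 to 6.90 (exact 95%, counting error only). The log2 fold over the 3 strains was 2.43 ± 0.20, and Gpr183 was the 1 member of 5 that met the call rule (all genes 16%), a call lost without the C57BL6/J LPM library (fold 2.33). Cyp27a1 ranged from 248.2 to 383.2 over the 4 libraries of the strain table and Hsd3b7 from 106.2 to 243.5, with Hsd3b7 higher in LPM than in microglia in both strains.

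Cyp7b1 in SPRET/EiJ LPM stood far from every other library. It read 21734 there (34242 reads) against 753.8 in NOD/ShiLtJ LPM, a ratio of 28.8 (27.3 to 30.5), and against 665.0 in C57BL6/J LPM of the other table. In that library Cyp7b1 was the 28th highest of 24063 symbols by value and took 0.217% of the mapped reads. In microglia the same 2 strains did not differ in this way, with 1386 in SPRET/EiJ and 1449 in NOD/ShiLtJ (ratio 0.957, 0.901 to 1.02). Microglia were thus above LPM in NOD/ShiLtJ (1.92, 1.79 to 2.06) and below it in SPRET/EiJ (0.0638, 0.0610 to 0.0667). Among the 7 neighbouring genes examined, up to 944 kb away, Armc1 read 269.0 in NOD/ShiLtJ and 283.7 in SPRET/EiJ LPM, Mtfr1 356.0 and 240.6, and the other 5 stayed at 13.3 or below in both.

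Ch25h gave 71.9 (109 reads) in SPRET/EiJ microglia and no read in NOD/ShiLtJ microglia, at least 35.6-fold higher against the 3 reads taken as the floor of that library. In LPM of the same strains it gave 1 read (0.635) and 0. The endothelial marker list, 6 genes, was also higher in SPRET/EiJ microglia (1153) than in NOD/ShiLtJ microglia (277.5). In SPRET/EiJ LPM that list summed to 700.1, against 87.0 in NOD/ShiLtJ LPM, with the single Ch25h read. Between SPRET/EiJ and NOD/ShiLtJ, with population as a block, limma called 0 of the 5 members (all genes 0.31%), with 1 at an unadjusted p under 0.05 and 0 by edgeR. The folds of Ch25h (3.45 ± 1.35) and Cyp7b1 (2.39 ± 1.10) each came mainly from 1 of the 2 populations. With 1 library per strain and population, strain and library cannot be told apart.

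**Figure D2:**
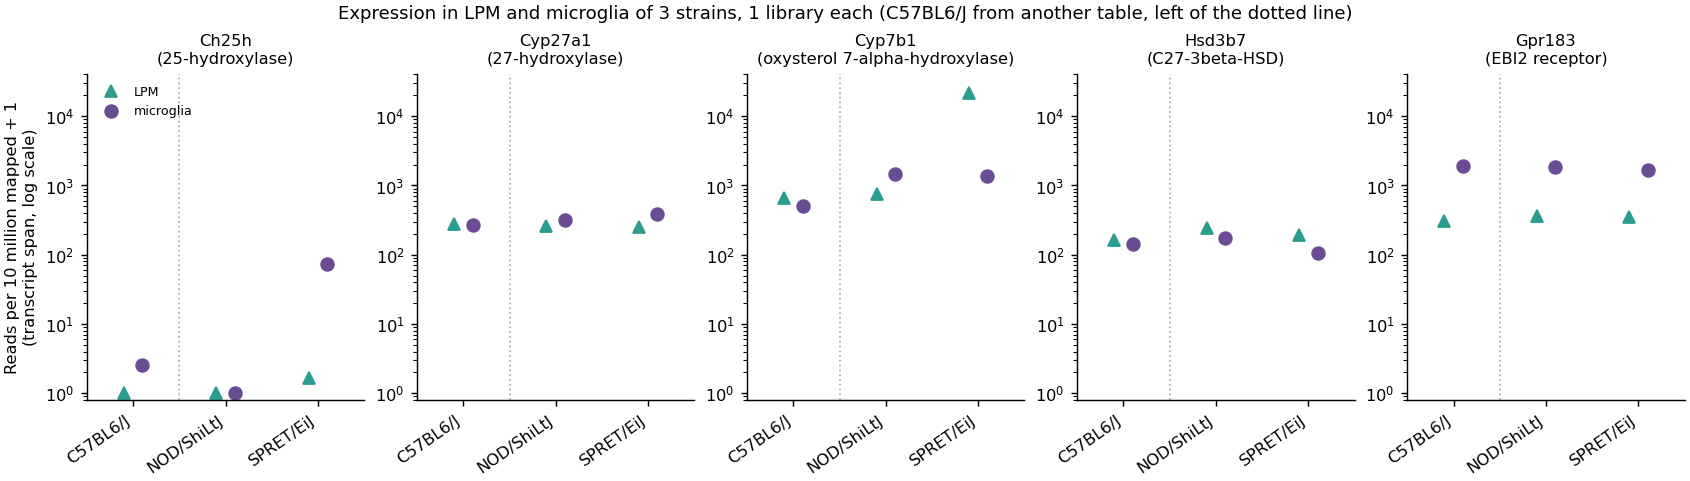
Expression of the 5 genes in LPM (triangles) and microglia (circles) of 3 strains, as reads per 10000000 mapped reads plus 1 on a log axis, 1 library per point, with C57BL6/J from another table left of the dotted line. Cyp7b1 reaches 21734 in SPRET/EiJ LPM and Ch25h 71.9 in SPRET/EiJ microglia, while Gpr183 in microglia stays between 1693 and 1917.

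In cultured LPM, TGFB1 was accompanied by much more Ch25h. With IL-34, Ch25h read 440.6 (456 reads) with TGFB1 and 1.70 (2 reads) with its vehicle, a ratio of 259.6 whose interval, on so few vehicle reads, ran from 71.4 to 2150. With M-CSF it read 957.1 with TGFB1 and 51.7 with the vehicle, a ratio of 18.5 (14.4 to 24.1). Both TGFB1 libraries lay above the other 6 LPM cultures. The log2 fold was 5.77 ± 0.50, the 8th highest of 15417 genes tested, and its call was lost in 1 of 8 fits that left out a library, that without the M-CSF DMSO culture (fold 5.77). The microglia marker sum given above was higher in both TGFB1 cultures (13203 and 13176) than with vehicle (2256 and 3533), and its part in the Ch25h level was not tested.

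Per kb of exon, the M-CSF culture with TGFB1 gave Ch25h 709.5, against 125.9 for Hsd3b7, 88.3 for Gpr183, 34.8 for Cyp27a1 and 0.326 for Cyp7b1, so Ch25h was the most abundant of the 5 transcripts there, while in the vehicle culture it stood at 38.3 below Gpr183 (157.1), Hsd3b7 (113.2) and Cyp27a1 (80.5). Cyp27a1 was lower with TGFB1, from 205.4 to 90.8 with IL-34 (ratio 0.442, 0.345 to 0.563) and from 151.3 to 65.4 with M-CSF (0.432, 0.334 to 0.556). Its log2 fold was -1.18 ± 0.34. Gpr183 read 236.7 with TGFB1 and 219.8 with vehicle under IL-34 and 259.3 and 461.7 under M-CSF, with no call (-0.36 ± 0.33), and Hsd3b7 read 236.7 and 171.4, then 228.4 and 205.4 (0.31 ± 0.33). Cyp7b1, the enzyme that follows Ch25h, had 0 or 1 read in all 4 of these libraries. Ch25h and Cyp27a1 were the 2 of 5 members meeting the call rule (all genes 6.7%), and the call of Cyp27a1 was lost in 7 of the 8 fits that left out 1 library, with folds of -1.36 to -1.01.

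ATRA went with less Gpr183 and less Ch25h. Gpr183 read 64.4 with ATRA and 186.6 with DMSO under IL-34, 2.90-fold lower (2.18 to 3.88), and 67.6 and 456.6 under M-CSF, 6.75-fold lower (5.43 to 8.47). Both ATRA libraries lay below the other 6 LPM cultures, and the log2 fold was -2.13 ± 0.33, the 14th lowest of 15417 genes. Ch25h read 2.11 (3 reads) with ATRA and 47.9 (59 reads) with DMSO under M-CSF, 22.7-fold lower (7.39 to 113.1). Under IL-34 it had 1 and 2 reads, too few to show a difference. Its log2 fold of -2.47 ± 0.50 takes in both pairs, with log2 differences of -3.97 under M-CSF and -0.97 under IL-34. These were the 2 of 5 members that met the call rule (all genes 2.3%). The Ch25h call was lost in 6 of the 8 fits that left out 1 library and the Gpr183 call in 2 of them, those without either DMSO library.

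Hsd3b7 differed in opposite directions with ATRA, from 135.7 to 197.6 under IL-34 (ratio 1.46, 1.15 to 1.85) and from 190.1 to 115.5 under M-CSF (0.608, 0.495 to 0.745), and its log2 fold was -0.09 ± 0.33. Cyp27a1 read 158.6 and 184.0 under IL-34 and 186.0 and 168.2 under M-CSF, with ATRA and DMSO in turn. Cyp7b1 had 1 or 2 reads in each of the 4.

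The 2 CSF1R ligands also differed in Ch25h. With DMSO it read 2.61 under IL-34 and 47.9 under M-CSF (18.4-fold higher under M-CSF, 4.86 to 155.2), with the TGFB1 vehicle 1.70 and 51.7 (30.5-fold, 8.11 to 256.9), with TGFB1 440.6 and 957.1 (2.17-fold, 1.95 to 2.42) and with ATRA 0.848 and 2.11. Ch25h was higher under M-CSF in all 4 pairs, the ATRA pair resting on 1 and 3 reads. The log2 fold of IL-34 against M-CSF was -2.48 ± 0.35, the 7th lowest of 15417 genes, and Ch25h was the 1 member of 5 that met the call rule (all genes 0.999%). The call was lost without the IL-34 DMSO, the M-CSF DMSO or the M-CSF vehicle library, with folds of -2.05, -2.05 and -1.88. Gpr183 was lower under IL-34 with either solvent, 2.45-fold (2.03 to 2.96) with DMSO and 2.10-fold (1.81 to 2.44) with the TGFB1 vehicle, whereas with TGFB1 (236.7 and 259.3) and with ATRA (64.4 and 67.6) the 2 ligands differed by less than counting error, and over the 4 pairs it was not called (-0.64 ± 0.23). Quantile normalization moved the median fold of all genes by 0.15 in this comparison and by -0.12 for ATRA against DMSO. DMSO and the TGFB1 vehicle gave matching levels, with Ch25h at 47.9 and 51.7 and Gpr183 at 456.6 and 461.7 under M-CSF.

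Cultured microglia carried more Ch25h and less Cyp27a1 than fresh ones. Ch25h gave no read in the fresh library and 34.8 with IL-34, 124.9 with M-CSF and 27.3 with GM-CSF, at least 10.4-fold, 37.2-fold and 8.13-fold higher against 3 reads. Cyp27a1 read 166.6 fresh and 72.9, 28.5 and 34.1 in the 3 cultures, and Gpr183 801.7 fresh and 622.3, 370.0 and 214.9. Hsd3b7 was higher in all 3 cultures (159.2, 147.0 and 247.3 against 100.6). Its log2 fold was 0.83, where the median of all genes was itself 0.48, and it came down to 0.01 among the alternative settings. Cyp7b1 read 19.8 (25 reads) with M-CSF, where the other 3 libraries had 0 or 1 read.

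The fit of the 3 cultures against the 1 fresh library called 0 members in limma (all genes 9.01%), with 1 at an unadjusted p under 0.05 and 0 by edgeR. On simulated data of this comparison, where the 3 cultures shared the same mean for each gene, limma recovered 0 of 200 changed genes and edgeR 144. In the real libraries 859 of the 16446 symbols tested were at 0 in all 3 cultures. The real cultures also differ in their cytokine, which the simulation left out, so neither count of members is read. Against LPM cultured with the same ligands and a vehicle or DMSO, microglia were higher in Ch25h (2.41 ± 0.55) and lower in Cyp27a1 (-1.92 ± 0.30), the 2 of 5 members meeting the call rule (all genes 14.3%), although the microglia had received no solvent. The Ch25h call was lost in 4 of 6 fits that left out a library, that without the IL-34 microglia lowering the fold to its least, while the Cyp27a1 call was lost in 0 of 6. Quantile normalization moved the median fold of all genes by -0.57 in the first of these comparisons and by -0.25 in the second. The M-CSF culture of microglia was rich in inflammatory transcripts, with Il1b at 18935 and Cxcl10 at 17890 against 21.2 and 11.2 in fresh microglia, and the IL-34 and M-CSF cultures held fibroblast and mesothelial markers summing to 419.3 and 623.0 against 4.47. The part of either in the Ch25h level was not tested.

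**Figure D3:**
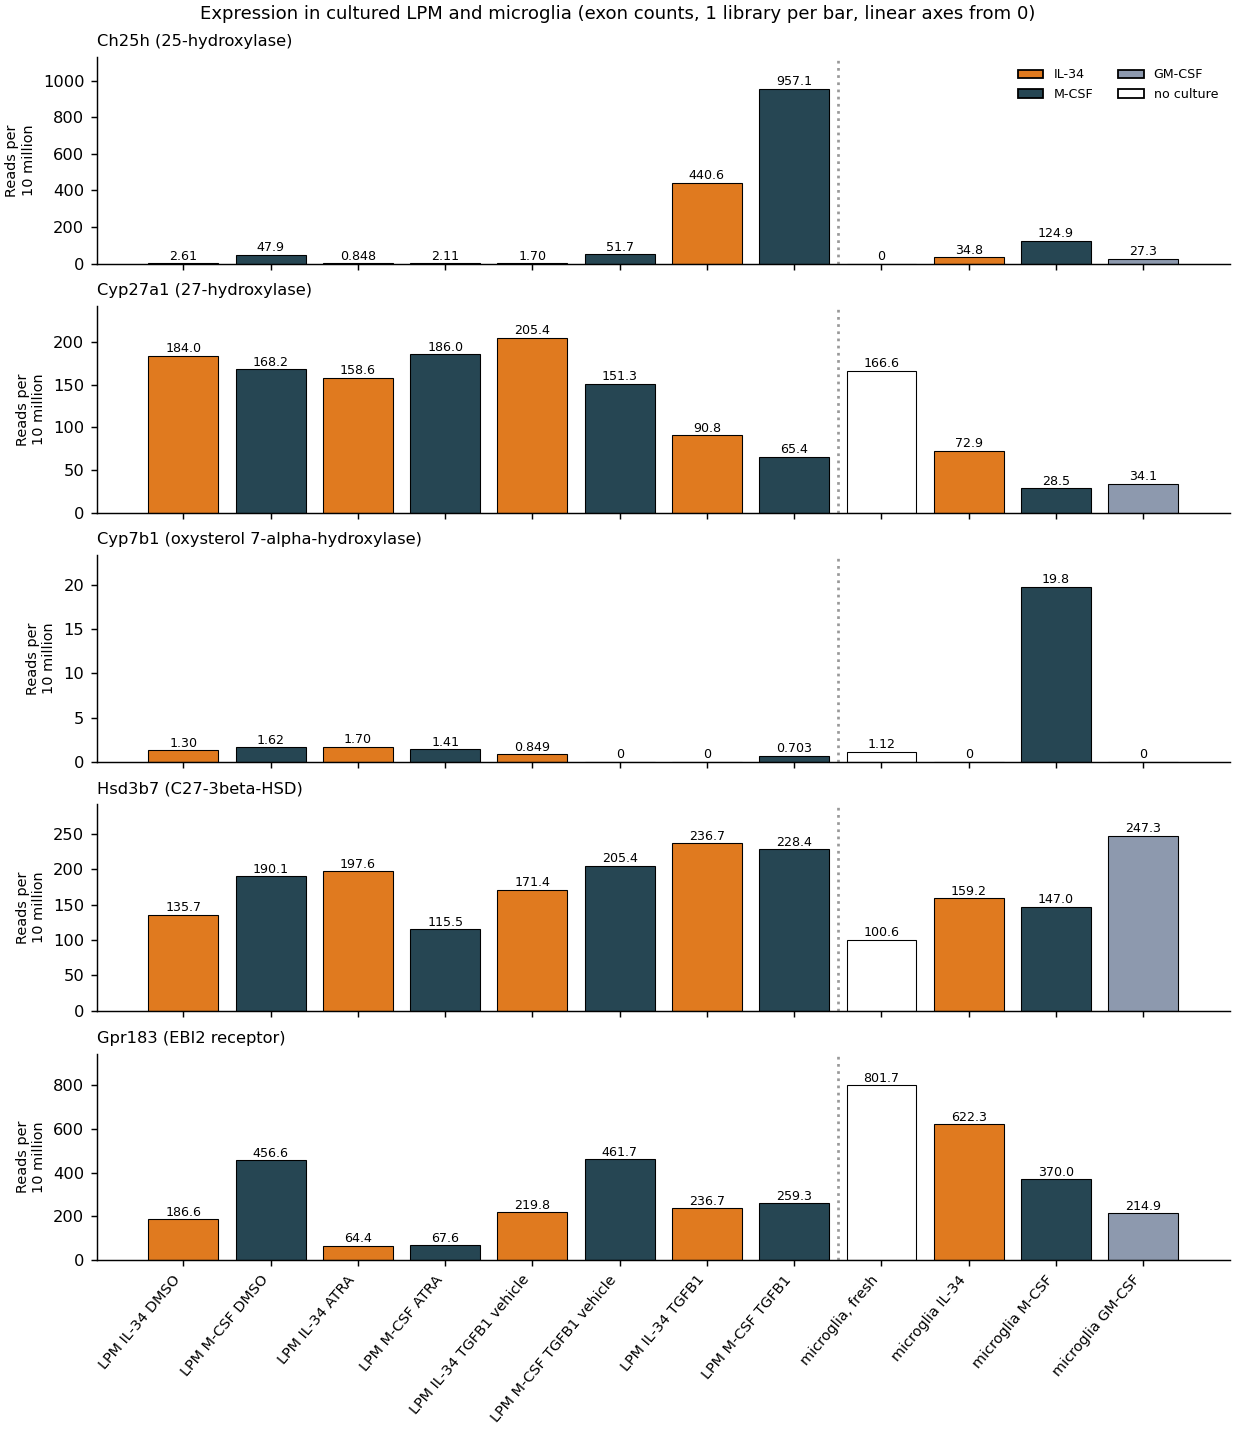
Expression of the 5 genes in 8 cultures of LPM and in fresh and cultured microglia, as reads per 10000000 mapped reads counted over exons, 1 library per bar on linear axes from 0, coloured by ligand. Ch25h reaches 440.6 and 957.1 with TGFB1, Gpr183 drops to 64.4 and 67.6 with ATRA, and Cyp7b1 stays at 1.70 or below outside the M-CSF culture of microglia.

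The chromatin lists, deposited as peaks for PU.1 and mostly as regions of varying width for the histone marks, hold 1 library per condition. Entries are therefore described by position and by their rank within their own list, where 100 is the strongest. The H3K27ac entries of the TGFB1 culture all measure 156 bases and those of its vehicle 159. Those of the DMSO and ATRA cultures vary upward from 500 bases, so these pairs of lists are not alike in kind. Distances are given from the start of the gene, positive in the direction of transcription. In the lists of cultured LPM 0% of entries lie within 1 kb of a start, while in the fresh lists the share reaches 31.8%, so they cannot show marks at promoters. The PU.1 list labelled TGFB1 is identical to that labelled vehicle and was left out, and which of the 2 labels it belongs to is not known. The BMDM sample titled PU.1 names H3K4me2 in its antibody label, and its list is used here by its title.

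Ch25h had H3K4me2 over its start in 8 of the 9 fresh lists, at percentiles of 89.3 to 97.7. Of all symbols, 12.5% to 52.4% had H3K4me2 over the start in the 9 fresh lists. H3K27ac lay over the Ch25h start in none of these lists, where 10.1% to 43.9% of all symbols had H3K27ac over the start. The gene was marked but nearly silent in these cells, and SPRET/EiJ microglia, the fresh library with the most Ch25h reads, was also the 1 list without H3K4me2 at the start. That list had H3K4me2 over the start for 12.5% of all symbols and for no member. The NOD/ShiLtJ LPM list, also at 12.5%, had H3K4me2 over the Ch25h start. PU.1 peaks lay 1.9 kb and 3.1 kb past the start of Ch25h in 8 and 10 of the 12 lists and 10.5 kb past it in 11, but not at the start itself. The peaks at -40.7 kb and -46.5 kb were in all 12 lists, at percentiles up to 99.7 and 98.0, and lie within the span of Lipa, the lysosomal acid lipase gene, as do H3K27ac regions in all 9 fresh lists. The widest measured 14211 bases in BMDM and 17837 in TGEM, both at percentile 99.7, and Lipa itself read 33198 and 33992 there in the polyA table against 447.9 in microglia, so these regions cannot be assigned to Ch25h. Within 100 kb of the Ch25h start, the TGFB1 culture had 11 H3K27ac entries and its vehicle 12, of which 8 and 4 ranked above the median of their own list. An entry at 10.2 kb was in both lists (percentiles 79.7 and 77.7), and upstream of Ch25h the TGFB1 list had 1 entry, at -8.5 kb (percentile 7.1), and the vehicle list none.

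Around Cyp7b1 the SPRET/EiJ LPM lists differed from the others as its RNA did. H3K27ac covered the Cyp7b1 start there over 3777 bases (percentile 92.9) and in no other fresh list, C57BL6/J LPM having only a 500-base entry at -0.3 kb (percentile 2.6). Within 100 kb of the Cyp7b1 start, SPRET/EiJ LPM had 12 H3K27ac regions, 15 H3K4me2 regions and 9 PU.1 peaks, against 4, 4 and 5 in C57BL6/J LPM and 3, 1 and 5 in NOD/ShiLtJ LPM. The 3 H3K27ac lists hold 26184, 24422 and 18241 entries in all. Of the added H3K27ac regions, 6 lay within the span of Cyp7b1, 15.4 kb to 56.1 kb past the start, and a region at -94.0 kb was 6852 bases wide (percentile 93.4) against 1071 bases in C57BL6/J LPM (at -96.3 kb) and 626 in NOD/ShiLtJ LPM (at -96.4 kb). All reads were placed on mm10, the C57BL6/J genome, and how variants of SPRET/EiJ bear on its lists was not tested.

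The PU.1 peaks at -76.3 kb and -96.0 kb from the Cyp7b1 start were in all 5 C57BL6/J populations. The one at -76.3 kb ranked at 99.4 in LPM, 99.6 in SPM, 98.6 in TGEM, 96.7 in BMDM and 60.8 in microglia, and an H3K27ac region covered it in LPM (1916 bases), SPM (2251) and TGEM (2545), lay beside it in BMDM (636) and was not listed in microglia. NOD/ShiLtJ and SPRET/EiJ microglia had no PU.1 peak within 100 kb of the Cyp7b1 start, and Cyp7b1 read 1449 and 1386 in them by span. In these lists of 18633 and 19832 peaks, 34.3% and 33.0% of all symbols likewise had none within 100 kb.

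**Figure D4:**
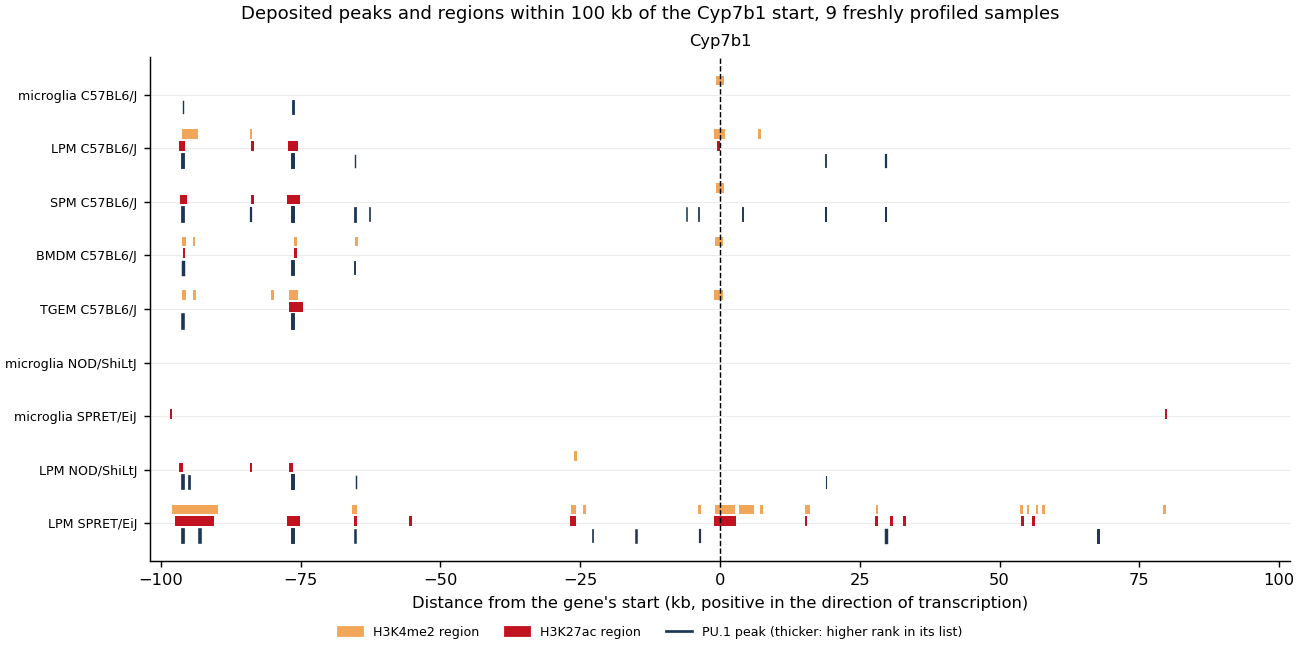
Deposited H3K4me2 regions (orange), H3K27ac regions (red) and PU.1 peaks (blue ticks, thicker for a higher rank in their list) by distance in kb from the start of Cyp7b1, in 9 fresh samples. SPRET/EiJ LPM has 12 H3K27ac regions, 1 of them over the start, against 4 in C57BL6/J LPM and 3 in NOD/ShiLtJ LPM.

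Of 27 PU.1 sites within 100 kb of the Cyp27a1 start, 2 were in all 9 fresh lists and 13 in a single list, and its histone marks varied too. PU.1 peaks at -0.9 kb and 2.1 kb from its start were in all 9 fresh lists, at percentiles of 50.9 to 98.4 and 85.7 to 98.9, and H3K27ac covered the start in 7 of the 9, from percentile 53.0 in microglia to 95.8 in BMDM. The 2 without it were microglia of NOD/ShiLtJ and SPRET/EiJ. H3K4me2 covered the Cyp27a1 start in 6 of the 9 and was not listed there in SPM, NOD/ShiLtJ LPM or SPRET/EiJ microglia, and H3K27ac regions within 100 kb numbered from 2 in microglia to 7 in BMDM among the C57BL6/J populations.

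Hsd3b7 had a PU.1 peak over its start in all 5 C57BL6/J populations and in SPRET/EiJ microglia, at percentiles of 51.4 to 68.8, where 5.31% to 14.8% of all symbols had one in the same lists. Within the Hsd3b7 window printed above, counted from its 5′ end, the peaks covered stretches between bases 131 and 300. That range holds 6 of the 7 GGAA matches of the window. The match at bases 177 to 180 lay outside the TGEM peak (185 to 300) and was cut by the BMDM peak (179 to 300). H3K27ac covered the start in TGEM (1203 bases, percentile 64.9), the population with the highest Hsd3b7 level, and in SPRET/EiJ LPM (500 bases, percentile 41.5), and in none of the other 7 fresh lists. BMDM, second in level, had H3K4me2 over the start (2078 bases, percentile 87.6) without H3K27ac.

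Gpr183 had the most PU.1 peaks within 100 kb of the 5 genes in each of the 9 fresh lists. Its start carried a PU.1 peak in all 9 fresh lists, at percentiles of 46.7 in BMDM to 93.2 in NOD/ShiLtJ microglia, and 18 to 35 PU.1 peaks lay within 100 kb, as many as or more than around 97.4% to 100.0% of all symbols. Of these sites 19 were shared by all 5 C57BL6/J populations and 11 by all 9 fresh lists. Within the Gpr183 window printed above, the peaks over the start covered stretches between bases 100 and 300. That range holds all 3 GGAA matches of the window. Only the C57BL6/J microglia peak (100 to 277) covered the match at bases 106 to 109, since the peaks of the other lists began at bases 110 to 175. Of the 62 sites, 46 lie within the span of Ubac2, so they neighbour both genes.

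The H3K27ac region at the Gpr183 start ranked highest in microglia, at percentile 99.3 in C57BL6/J (7773 bases) and 99.9 in NOD/ShiLtJ (8559 bases) and SPRET/EiJ (10292 bases). It ranked at 98.9 in SPM (12565 bases), 98.3 in SPRET/EiJ LPM (7504 bases), 96.4 in TGEM (8622 bases) and 74.3 in BMDM (2376 bases), and in LPM of C57BL6/J and NOD/ShiLtJ a region began just past the start (percentiles 97.5 and 96.2). TGEM, with the lowest Gpr183 RNA, thus still had a broad region over the start, and another of 16083 bases centred at -25.8 kb. In cultured LPM, the region upstream of the Gpr183 start measured 5071 bases with DMSO (at -20.8 kb, percentile 96.5) and 3216 bases with ATRA (at -21.5 kb, percentile 88.8) beside a second entry of 640 bases. Within 100 kb of the start there were 6 H3K27ac entries with DMSO and 7 with ATRA, from lists of 3963 and 6011. PU.1 peaks there numbered 8 and 18, from lists of 9645 and 28624.

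**Figure D5:**
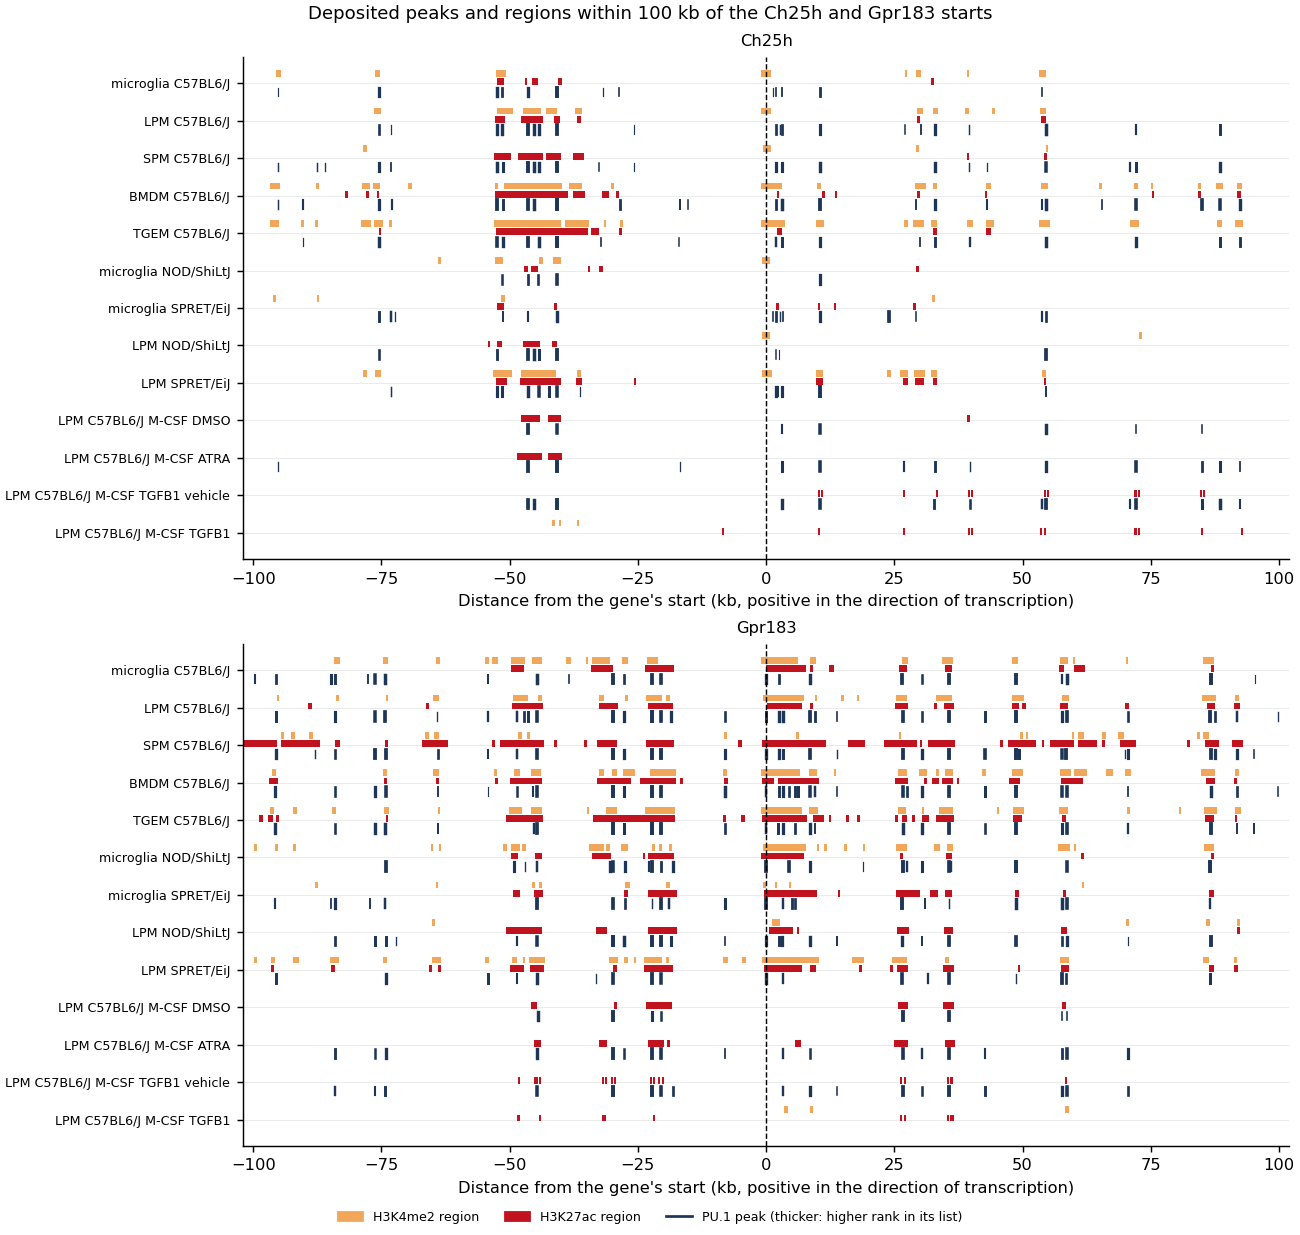
Deposited H3K4me2 regions (orange), H3K27ac regions (red) and PU.1 peaks (blue ticks, thicker for a higher rank in their list) by distance in kb from the starts of Ch25h and Gpr183, in 9 fresh samples and 4 cultures. The H3K27ac entries of the TGFB1 culture and its vehicle have fixed widths of 156 and 159 bases. Ch25h has no H3K27ac over its start in the 9 fresh samples, while Gpr183 has it there in 7 of them, and the culture lists cannot show marks at starts; the TGFB1 culture is drawn without PU.1 because its list was left out.

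The other genes of the pathway were followed through 4 lists of known function. Of 22 oxysterol and bile acid enzymes, 20 were tested between microglia and LPM, where 0 were higher and 3 lower in microglia (median log2 fold -0.65, all genes -0.11), where 18.3% of all genes were called in either direction. Among them were Hsd11b1 (-5.25), which reactivates glucocorticoids and also reduces oxysterols, and Soat1 (-1.17 ± 0.32), which esterifies cholesterol. Against TGEM, 2 were higher and 7 lower in microglia, Soat1 among the latter (-4.03 ± 0.32), where 37.5% of all genes were called (median -1.32, all genes -0.10). With ATRA 0 of 15 tested were called in either direction (all genes 2.3%), and with TGFB1 1 was (all genes 6.7%), Hsd11b1 (2.28 ± 0.56).

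Of 34 oxysterol sensors and targets of the oxysterol receptor LXR or of the sterol-regulated factor SREBP, 3 were higher and 7 lower in microglia than in LPM (all genes 18.3%, median -0.24 against -0.11), among them Apoc1 (-6.15 ± 0.66), Apoe (-5.53 ± 0.62) and Scd1 (-5.48 ± 1.02). Against TGEM 3 were higher and 16 lower in microglia (median -1.08, all genes -0.10), beside 37.5% of all genes called. With ATRA, where 2.3% of all genes were called, 3 of 33 rose and 0 fell (median 0.30, all genes 0.11), namely Apoc1 (2.87 ± 0.37) and the cholesterol exporters Abcg1 (2.29 ± 0.34) and Abca1 (1.63 ± 0.41). Abca1 read 9117 and 9698 with ATRA against 3341 and 2761 with DMSO, under IL-34 and M-CSF in turn. With TGFB1, where 6.7% of all genes were called, 2 of 33 rose and 1 fell (median -0.11, all genes -0.06). Apoc1 (2.12 ± 0.37) and the ubiquitin ligase gene Mylip (1.09 ± 0.32) rose and Pltp (-1.85 ± 0.32), the phospholipid transfer protein, fell.

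Of the 20 receptors of migration in the tables, 4 were higher and 9 lower in microglia than in LPM (all genes 18.3%, median -1.95 against -0.11), the 4 higher being Cx3cr1 (8.49 ± 0.61), P2ry13 (7.62 ± 0.61), Gpr34 (7.01 ± 0.76) and P2ry12 (6.02 ± 0.39), which are known markers of microglia. With ATRA, where 2.3% of all genes were called, 2 of 15 fell and 0 rose (median -0.10, all genes 0.11). These were Cx3cr1 (-2.66 ± 0.32) and Gpr34 (-1.37 ± 0.34), beside the fall of Gpr183. With TGFB1 those 2 rose (3.14 ± 0.32 and 1.79 ± 0.34) and Gpr132, a receptor for lysophospholipids and fatty acids, fell (-2.17 ± 0.62), while Gpr183 was not called. The share of all genes called with TGFB1 was 6.7%, and the median of the list was 0.04 (all genes -0.06). Cx3cr1 read 3487 and 3659 with TGFB1, 438.7 and 374.7 with its vehicle, 425.5 and 499.7 with DMSO and 93.3 and 55.7 with ATRA, under IL-34 and M-CSF in turn.

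Of 23 interferon and immediate early genes known to be induced beside Ch25h, 22 were tested with TGFB1, where 0 rose and 7 fell (median -0.82, all genes -0.06), among them the chemokines Cxcl2 (-5.13 ± 0.40), Ccl4 (-2.88 ± 0.55) and Ccl3 (-1.94 ± 0.42) and the cytokine Il1b (-3.80 ± 0.58). The other 15 did not meet the call rule, which 6.7% of all genes met. The interferon-induced Ifit2 read 2.90 and 2.11 in the 2 TGFB1 libraries and 0.849 and 6.27 with vehicle. In cultured microglia against cultured LPM, where Ch25h was also higher, 16 of 23 were higher and 0 lower (median 5.19, all genes 0.17), beside 14.3% of all genes called, led by Ifit2 (10.10 ± 0.75), Cxcl10 (9.47 ± 1.73), Rsad2 (9.37 ± 1.02) and Ifit1 (9.09 ± 0.81). With ATRA 0 of 22 rose and Fos alone fell (-1.43 ± 0.34), beside 2.3% of all genes called.

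Across the 10 libraries of the 5 populations, centred by table, the genes most like each member among 10918 genes with a mean of at least 50 were named by Pearson's r as a description, the 10 points sharing tables and populations. Gpr183 was most like Mef2c (0.986), Fchsd2 (0.980) and Znrf2 (0.974), and Mef2c read 5220 and 14891 in microglia against 225.9 and 302.9 in TGEM. Hsd3b7 was most like Bnip3l (0.984), Atp6v1e1 (0.981) and Cdk20 (0.980), with Bnip3l at 4208 and 2058 in TGEM against 546.1 and 448.0 in microglia. Cyp7b1 was most like Nfil3 (0.949), Tapt1 (0.948) and Heg1 (0.938), Cyp27a1 most like Mpv17l (0.961), Phka2 (0.899) and Cdk14 (0.899), and Ch25h, on few reads, most like Tspan4 (0.927), Selk (0.925) and F630206G17Rik (0.918). Between members, r was -0.720 for Hsd3b7 and Gpr183, 0.769 for Hsd3b7 and Ch25h and -0.526 for Cyp7b1 and Ch25h.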

How the data were processed

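Expression values are a signal that the authors scaled, per the file headers, to 10000000 mapped reads from reads counted per transcript. The listed length equals the genomic span for 99.6% of transcripts in the polyA, replicates and strain tables and for 8.26% in the culture table. Bowtie, STAR, HOMER and mm10 are named in the submitters' processing notes, with no version. The value of 1 read stands only rounded in each header, so it was estimated from the lower values of each library. Of the low values, which also entered that estimate, 100% were whole multiples of it within 0.1, and reads were recovered by division. The mapped reads given are 10000000 divided by the estimate. Counting intervals (exact, 95%) and the floor of 3 reads cover counting error only.

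The longest transcript per symbol was kept. limma 3.58.1 (R 4.3.3) fitted log2(value + 1) with an expression trend for genes reaching 1 in at least 1 library of the fit, with Benjamini-Hochberg adjustment over all genes. A gene was called at an adjusted p under 0.05 and a log2 fold of at least 1, and all folds carry that pseudocount of 1, so changes of genes near 0 come out too small. The table was a block between populations, the strain a block across strains, and ligand with treatment additive terms in the LPM cultures. edgeR 4.0.16 (quasi-likelihood, TMM) on recovered reads, log2(value + 5), no filter, quantile normalization, no table block, the transcript of highest mean and leaving out each library were alternatives, and the strain fits hold no X or Y gene, all 1047 and 48 of which were at 0. A test on simulated data of the culture comparisons was made, with its recovery given where it limits a result.

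Peaks and regions were used as deposited, with the score that the authors' lists give each entry ranked within its list only. Entries within 100 kb of a start were kept from 38 lists, 1 sample each. Sequences and motif searches used RefSeq promoter windows, which hold 4 of the 5 members, and Python 3.11.15 with scipy 1.17.1.

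The members, the gene and marker lists and the rule for named genes were chosen with earlier results of these data known. Within a list, up to 4 called genes of largest fold were named per comparison, except some that are not reported here, and the 3 genes of highest correlation per member.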

Additional observations from a re-analysis of the deposited data

Results flagged for a closer look

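Opposite directions between groups were looked for in 20 comparisons, with at least 0.5 on the log2(value + 1) scale in each group. None of the 3 differences below was tested, since each group has 1 library per condition. Hsd3b7 was higher with ATRA than DMSO under IL-34 (log2 difference 0.54) and lower under M-CSF (-0.71), a gap of 1.25. Cyp7b1 differed by -0.89 with TGFB1 under IL-34 and by 0.77 under M-CSF, a gap of -1.65 that rests on 0 or 1 read in each library. Cyp7b1 was higher in microglia than in LPM in NOD/ShiLtJ (0.94) and lower in SPRET/EiJ (-3.97), a gap of 4.91, with 21734 in SPRET/EiJ LPM against 753.8 to 1449 in the other 3 libraries.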

How the results depend on the processing

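Of 1170 member folds recomputed under the alternatives, 1067 stayed on their side of the call rule, 89 were no longer called, 13 were newly called and 1 reversed; sign changes among values never called are not counted. The reversed value is Cyp7b1 in cultured against fresh microglia, which was 0.38, ranged from -1.08, without the M-CSF microglia library, to 1.11 when libraries were left out, and reached 1.95 with edgeR. The number of members called went with edgeR from 2 to 3 for microglia against BMDM and LPM against TGEM, and from 1 to 2 for BMDM against TGEM and for microglia against LPM across strains. Without a filter, which adds genes at 0 in every library and so enters more tests, it went to 0 for LPM and SPM against BMDM, microglia against LPM across strains, ATRA, TGFB1, IL-34 against M-CSF and cultured microglia against LPM, and to 2 for SPM against TGEM. With quantile normalization it went to 1 for LPM against BMDM and for ATRA, to 0 for IL-34 against M-CSF and to 2 for SPM against TGEM. SPM against TGEM also gave 2 with log2(value + 5), and without the table block LPM and SPM against BMDM gave 0. Leaving out 1 library gave 1 to 2 members for microglia against LPM and SPM, 1 to 3 against BMDM, 0 to 2 for LPM and SPM against BMDM, 0 to 3 for LPM and 1 to 3 for SPM against TGEM, 0 to 1 for BMDM against TGEM, across strains, IL-34 against M-CSF and cultured against fresh microglia, 0 to 2 for ATRA and TGFB1, and 1 to 3 for cultured microglia against LPM. Other causes were not tested. Over all genes, limma and edgeR called 5 and 100 for LPM against SPM, 1482 and 308 for cultured against fresh microglia, 154 and 90 for IL-34 against M-CSF and 56 and 97 for SPRET/EiJ against NOD/ShiLtJ. In the 5 populations, the 996 marks within 100 kb of member starts became 550 within 50 kb, and 564 when entries below their list's median score were left out. Leaving out a library of SPRET/EiJ against NOD/ShiLtJ leaves no residual degrees of freedom and was not run. No paired analysis was possible because the replicate numbers in the labels are shared by BMDM and TGEM alone, each with a single such number.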
